A study of Rattus norvegicus with 12 samples.

Results

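The response that the endothelins ET-1, ET-2 and ET-3 (endothelin-1 to endothelin-3) share in cultured rat retinal ganglion cells (RGCs) was measured by pooling the 3 peptides against untreated cells. The comparison used all 12 arrays of the series, 9 with a peptide and 3 without. Within each replicate number of the labels (1 to 3) the mean log2 signal of the ET-1, ET-2 and ET-3 arrays was set against the untreated array of that number. Of 31042 probe sets on the Affymetrix Rat Genome 230 2.0 array, 20826 carry a single gene symbol in the platform annotation and could be named, and 12193 of these lay above the filter on dim signals. They represent 9425 genes.

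RGCs are the retinal neurons whose axons form the optic nerve. Here they came from Sprague-Dawley pups of postnatal days 4 to 6 by panning on an antibody to Thy-1.1 and were grown for 7 days without serum, in medium that held the neurotrophic factors BDNF and CNTF together with forskolin. The neurotrophic factors were then withdrawn overnight, from the control cells as well. Cells next had 24 h with 1 of the 3 peptides at 100 nM, or with none. The labels name the control untreated in titles and vehicle in descriptions, and it is called untreated here. They do not say how many pups or cultures lie behind a replicate number, so the p-values below measure the spread between these arrays.

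Endothelins are short peptides best known as constrictors of blood vessels. They act on 2 G protein-coupled receptors, ETA and ETB, which raise intracellular calcium through phospholipase C and activate kinases. ET-3 binds ETA more weakly than ET-1 and ET-2 do, whereas ETB binds the 3 peptides alike. In the eye, endothelins have been linked to glaucoma, to the loss of RGCs and to the activation of optic nerve astrocytes. Genes of the endothelin receptors were not analysed here. Of the processing enzymes that cut the peptides from their precursors, Ece1 was at 0.17 ± 0.069 and Ece2 at -0.065 ± 0.14 (log2 change ± SE), and neither passed (adjusted p = 0.169 and 0.824).

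With the 3 peptides pooled, genes of inflammation, of the contractile and adhesive cytoskeleton, of the extracellular matrix and of cell division were higher than without peptide. Those of cell division rested on replicate number 1, with a median log2 change of 1.63 there against 0.36 and 0.29 in numbers 2 and 3. The receptor of interleukin-33, Il1rl1, rose 9.08-fold and the secreted proteoglycan Esm1 (endocan) 8.24-fold. The called genes that fell were fewer, although not with the arrays centred on their median, and moved less. Among the largest were the methyltransferase Inmt (3.47-fold lower), the anticoagulant receptor Thbd (thrombomodulin, 2.27-fold) and Crym, a thyroid hormone-binding crystallin (2.03-fold). Most genes for synapses, channels, axons and RGC identity did not pass, although their medians lay slightly below 0.

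Array medians ran from 136.0 to 181.0 in units of MAS5 signal. The arrays grouped by replicate number. Deviations from the group means correlated between 0.684 and 0.912 for the 18 pairs of arrays that share a number in different groups, and between -0.706 and -0.056 for the 36 pairs that do not. RGC markers were bright on every array: the summed signal of 25 of them ran from 110000 to 153000 without peptide and from 108000 to 166000 with it. Split by number, it was 108000 to 113000 in number 1 and 130000 to 166000 in numbers 2 and 3. Markers of fibroblasts and meningeal cells (20 genes) summed to 60700 to 67400 on the 4 arrays of number 1 and to 10600 to 16300 on the other 8. Oligodendrocyte and Schwann cell markers, a list that shares Pdgfra with the fibroblast list, summed to 8230 to 9110 and to 3030 to 3350 there. In these bulk samples, fewer cells of a type and less RNA per cell cannot be told apart.

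Limma's test with the replicate number as a block called 758 of 15521 probe sets at an adjusted p under 0.05 (4.88%), 549 higher (3.54%) and 209 lower (1.35%). Among genes, each read from its brightest tested probe set, 497 of 9425 passed (5.27%), 379 higher (4.02%) and 118 lower (1.25%). The split depends on scaling: with each array centred on its median, 426 probe sets were higher and 1066 lower, so 28.6% of the calls were higher against 72.4% without centring. Of the called genes, 187 rose and 11 fell by at least 1.5-fold, and 57 rose and 3 fell by at least 2-fold. The median called gene rose 1.49-fold or fell 1.21-fold. The 9 endothelin arrays did not overlap the 3 untreated arrays for 80 of 9425 genes on the higher side (0.849%) and 42 on the lower side (0.446%), and 65 and 15 of these were called.

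These calls treat the 3 peptide arrays of a number as separate arrays, although they share its 1 untreated array. When each number gave a single difference, 97 probe sets passed (0.625%), 90 higher and 7 lower. They cover 63 genes that rose and 5 that fell, and all 68 were also called with the block. Without the replicate block 0 probe sets passed by limma. That fit left 397 probe sets below 0.05 before adjustment, where 776 would be expected, and its smallest adjusted p was 0.128. Below, a call refers to the block, and where it matters the adjusted p from the 3 differences is given beside it. Each ± in the text is likewise the SE of the block fit. It does not measure the spread between the 3 numbers, which can be far wider: for Ccl20 the SE was 0.51 and the SD of the 3 differences 2.07.

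The higher genes were not spread evenly over the replicate numbers. Their median difference was 0.71 within number 1, 0.52 within number 2 and 0.34 within number 3 on the log2 scale, and 376 of the 379 had positive differences in all 3. Over all 9425 genes, 1469 (15.6%) were higher and 2103 (22.3%) were lower in all 3 numbers. The higher genes also had their brightest arrays in number 1. For 289 of 379 (76.3%) the endothelin mean was highest there, against 32.0% of all genes, and for 243 (64.1%) the untreated signal already was, against 32.7%. This was not so for the 118 lower genes, of which 24 (20.3%) had their highest endothelin mean in number 1. Number 1 is also where the fibroblast markers were high and the RGC marker sums lower. The part of these differences in the response was not tested.

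Il1rl1 had signals of 656, 246 and 199 on the untreated arrays of numbers 1, 2 and 3, and of 916 to 12271 (median 1879.8) on the 9 endothelin arrays. Each endothelin array lay above each untreated array, and the 3 of number 1 were far above the other 6. The pooled log2 change was 3.18 ± 0.25 (SE, n = 3 replicate numbers; adjusted p = 4.41e-05, and 0.00816 from the 3 differences). Esm1 is secreted by endothelium and other cells in inflammation. It read 381, 102 and 247 without peptide and 706 to 5937 with it (median 1288), again with no overlap (3.04 ± 0.20, adjusted p = 2.8e-05). S100a6, a calcium-binding protein of dividing and reactive cells, read 2429.6, 845 and 1636 against 3157 to 13617 (median 4521). Its groups did not overlap (1.99 ± 0.15, adjusted p = 4.12e-05, and 0.00816 from the 3 differences).

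Other genes among the 12 largest increases rested more on number 1. The chemokine Ccl20, which attracts lymphocytes, changed by 4.36, 2.98 and 0.29 in numbers 1, 2 and 3 (2.55 ± 0.51, adjusted p = 0.0138, and 0.14 from the 3 differences). The cytokine Il6 changed by 4.19, 1.31 and 0.56 (2.02 ± 0.46, adjusted p = 0.0249, and 0.198 from the 3 differences). Both had large differences in numbers 1 and 2 and small positive ones in number 3. Fst, which encodes the activin antagonist follistatin, rose by 1.61, Hrct1 by 1.54, and Rgs16, which shortens G protein signals, by 1.39. The rest were the prostaglandin enzymes Ptgs1, Ptges and Ptgs2 and the coagulation starter F3, described below. The bone morphogenetic protein antagonist Grem1 (2.05) and the matrix protein Tnc (tenascin-C, 2.04) rose as much but are outside the rule that named these genes. Their differences were 3.52, 2.84 and -0.23 for Grem1 and 4.01, 2.29 and -0.17 for Tnc, slightly negative in number 3.

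Thbd, the receptor that turns thrombin toward anticoagulation, read 835, 616 and 572 on the untreated arrays and 200.0 to 434 (median 307) on the endothelin arrays. Every endothelin array lay below every untreated array, and the fall was of like size in each number: -1.17, -0.99 and -1.37 (-1.18 ± 0.098, adjusted p = 5.65e-05, and 0.0115 from the 3 differences). Inmt read 1269, 939 and 654 without peptide and 198 to 382 with it (median 258), also with no overlap (-1.80 ± 0.21, adjusted p = 0.000545). Crym read 1193, 2219.8 and 2036 against 441 to 1339 (median 1012). Its groups overlapped because number 1 was low with and without peptide, whereas the differences within numbers were -1.19, -1.04 and -0.82 (adjusted p = 8.59e-05). The other genes of the 12 largest decreases were Angpt2 (angiopoietin-2, a vessel-destabilising ligand, -0.92), Ogn (the small proteoglycan osteoglycin, -0.88), Cldn11 (a tight-junction claudin, -0.88), Islr (-0.73), Mfap2 (a microfibril protein, -0.73), Ube3al1 (-0.69), Tril (-0.62), Agtr2 (the angiotensin II type 2 receptor, -0.60) and Kdr (a receptor for vascular endothelial growth factor, -0.58). Their adjusted p ran from 0.000868 (Ogn) to 0.0326 (Tril).

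**Figure D1:**
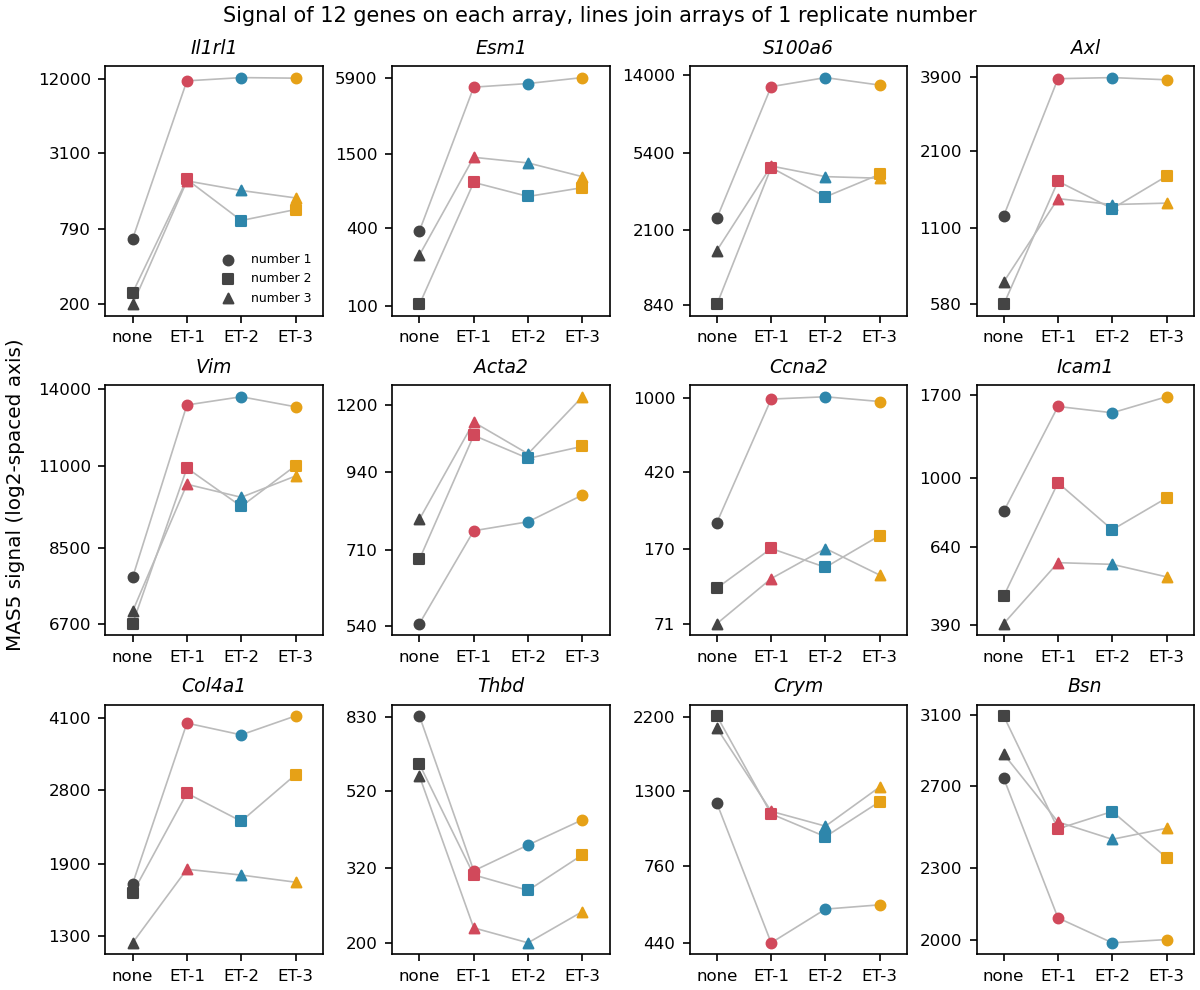
MAS5 signal on each array (log2-spaced vertical axis, a different range in each panel) of 12 genes without peptide (none) and with ET-1, ET-2 or ET-3; symbols mark the replicate number and grey lines join the 4 arrays of a number. Il1rl1, Esm1, S100a6, Axl and Vim are higher on all 9 endothelin arrays than on any untreated array, Thbd and Bsn are lower, and Ccna2 is far higher in number 1 than in numbers 2 and 3.

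The 3 peptides were then set side by side at their shared dose and time. An F-test of any difference among ET-1, ET-2 and ET-3 in the same limma fit called 0 of 15521 probe sets (444 lay below 0.05 before adjustment, where 776 would be expected, and the smallest adjusted p was 0.9999), which does not show that they act alike. The median change of the 379 higher genes was 0.61 with ET-1, 0.53 with ET-2 and 0.62 with ET-3, and that of the 118 lower genes was -0.27, -0.27 and -0.28. Within a called gene, the largest and smallest of the 3 changes differed by 0.13 in the median. For Il1rl1 the changes were 3.45, 3.04 and 3.06 with ET-1, ET-2 and ET-3. Thbd was at -1.26, -1.28 and -0.999. Of the 497 called genes, 15 had an unadjusted F-test p under 0.05, none of which passed adjustment. They include Crym, at -1.10, -1.11 and -0.84, and Ptbp1, a splicing regulator, at 0.72, 0.52 and 0.81. The comparisons share their untreated arrays, so likeness between peptides is no independent support.

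**Figure D2:**
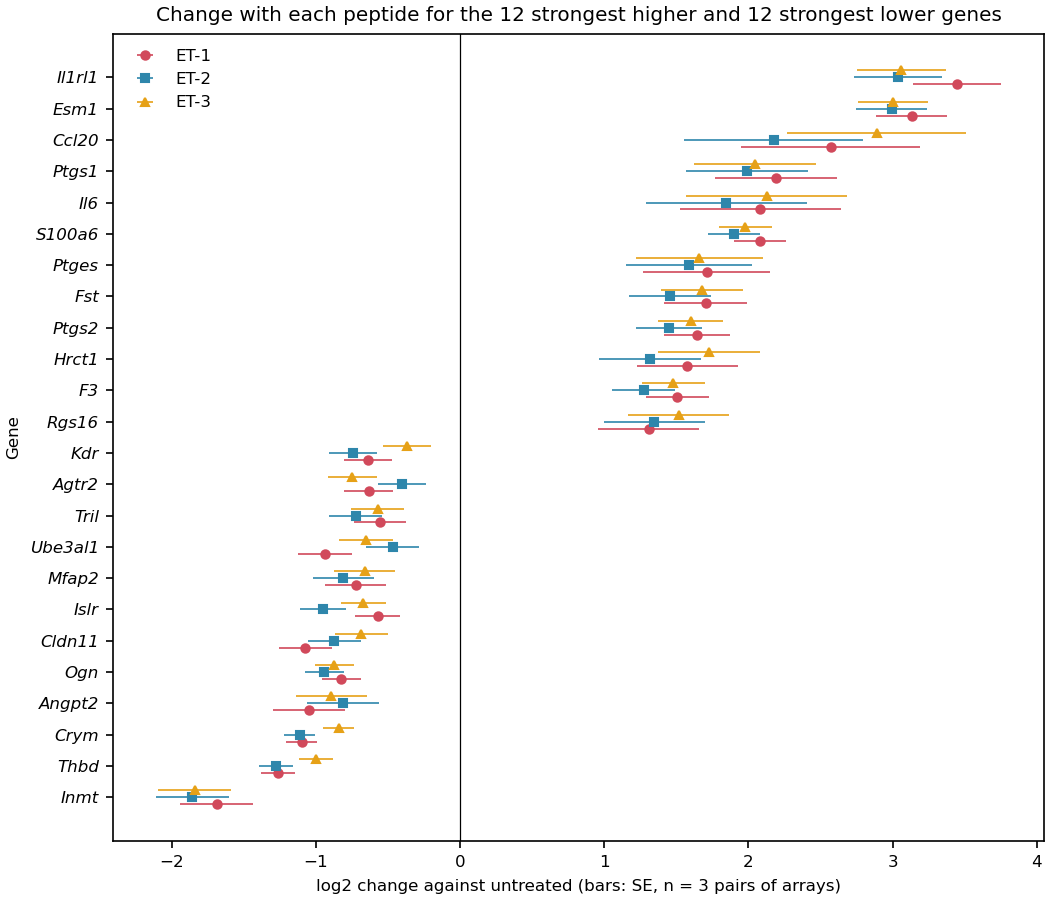
Log2 change against untreated with ET-1, ET-2 and ET-3 for the 12 strongest higher and 12 strongest lower genes (horizontal axis, bars are the SE of the block fit, n = 3 pairs of arrays). For 17 of the 24 genes the bars of the most distant peptides touch, and the genes run from Il1rl1 and Esm1 near 3 down to Inmt below -1.5.

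To read the response by function, 49 lists of genes for pathways and processes and 10 lists of cell type markers were used, with 1163 tested members in all. Of the called genes, 162 that rose and 26 that fell are on a list. Counts below are read against the 4.02% of all tested genes that rose and the 1.25% that fell. Those without number 1, which rest on 8 arrays, are read against 1.35% and 0.18%, and those from the 3 differences against 0.668% and 0.0531%. Lists and members were chosen with earlier results of these data known, so shares above these values are a description and no independent support. The lists with the largest shares of higher calls were those of prostaglandins, matricellular proteins, chemokines, contractile genes and the cell cycle, besides that of pericyte and smooth muscle markers.

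**Figure D3:**
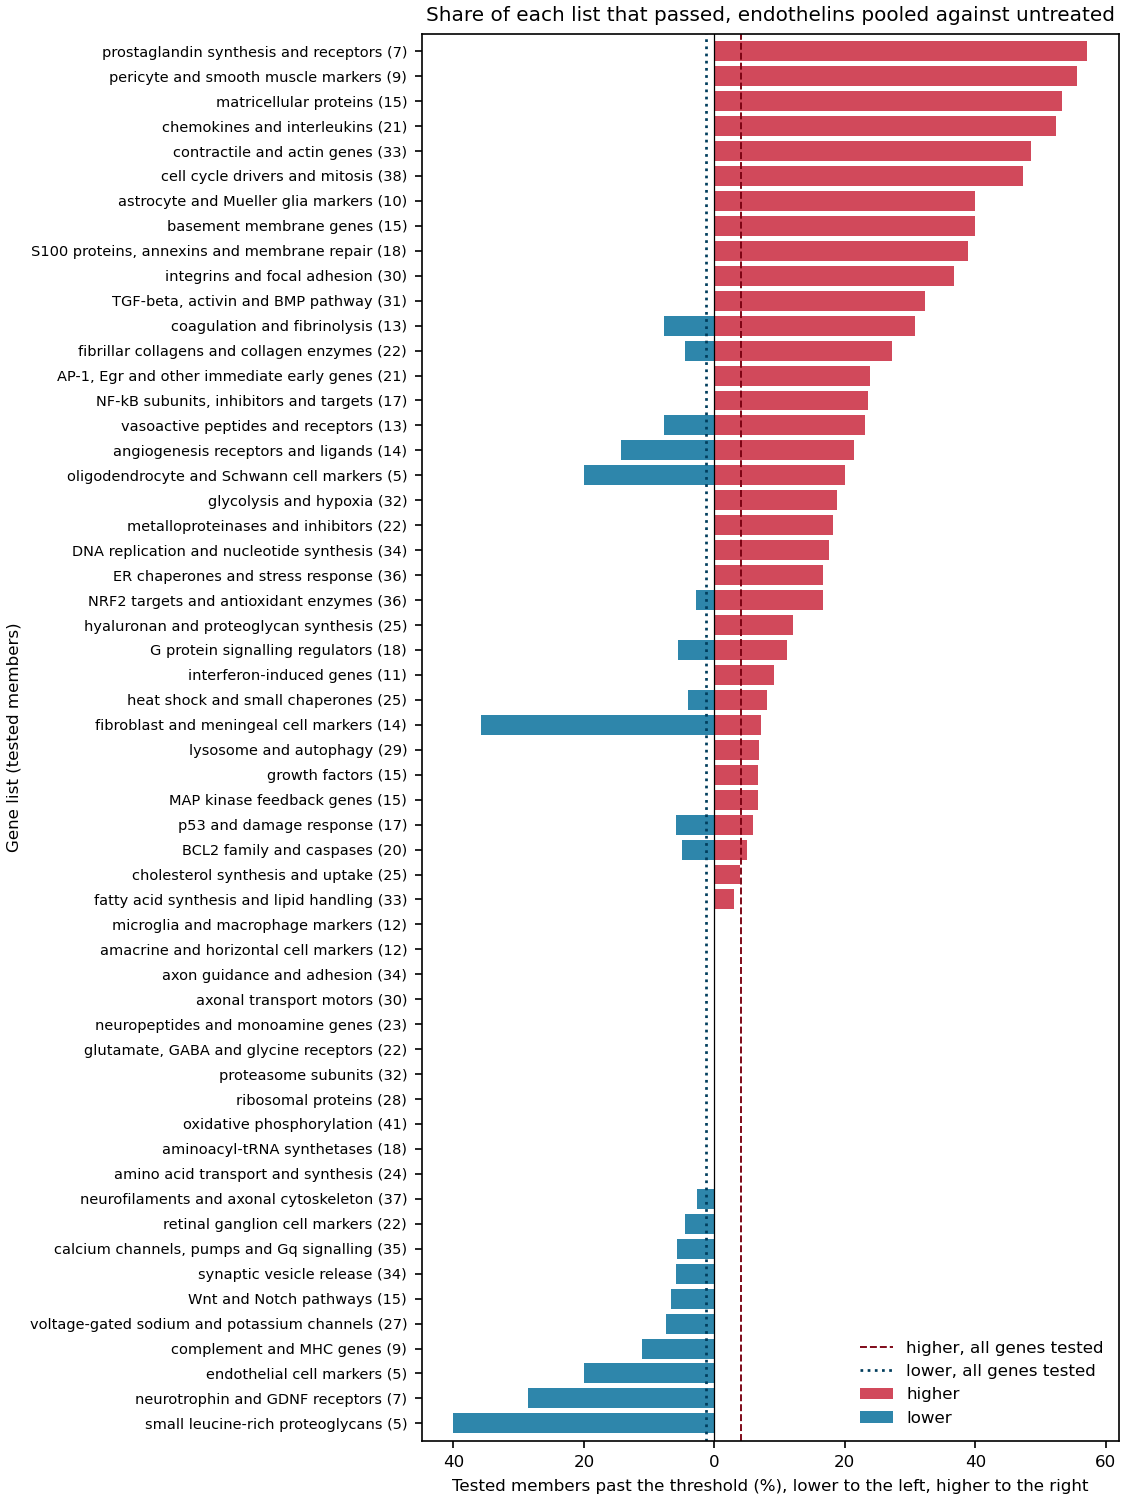
Share of the tested members of each list that passed higher (red, to the right) or lower (blue, to the left), in percent; the vertical lines mark 4.02% higher and 1.25% lower over all genes tested, and tested members are given in brackets (lists with at least 5). Matrix, contractile, inflammatory and cell cycle lists lie far to the right, and neuronal lists hold no higher call. The lists were chosen with earlier results of these data known.

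Inflammatory mediators were among the strongest genes. Of 21 tested chemokines, interleukins and their receptors 11 rose, with a list median of 0.71 against -0.018 over all genes. Besides Il1rl1, Ccl20 and Il6, they were the monocyte attractants Ccl2 (1.24 ± 0.16) and Ccl7 (1.23 ± 0.14), the neutrophil attractants Cxcl1 (0.84), Cxcl2 (0.58), Cxcl3 (0.93) and Cxcl6 (0.87), the interleukin-1 receptor Il1r1 (0.75 ± 0.088) and Cxcl16 (0.71). Il1rl1, Ccl2, Ccl7 and Il1r1 also passed from the 3 differences. The list median was 1.03 in number 1, 0.75 in number 2 and 0.11 in number 3, and 5 members passed without number 1. Ccl2 read 4299, 1533 and 2216 on the untreated arrays and 2969 to 13759 (median 4903) with endothelin. These ranges overlap, since number 1 was bright throughout, but the difference was positive in each number (1.58, 1.54 and 0.58, adjusted p = 0.00132).

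Arachidonic acid is released from membranes by a phospholipase and made into prostaglandins by cyclooxygenases and terminal synthases. Genes of each step rose: Pla2g4a, the cytosolic phospholipase A2 (0.56 ± 0.14, adjusted p = 0.0429), the cyclooxygenases Ptgs1 (2.07 ± 0.35) and Ptgs2 (1.56 ± 0.19), and the prostaglandin E synthase Ptges (1.65 ± 0.36). They are 4 of the 7 tested genes of the list, whose median was 0.56, and 3 passed without number 1 and 1 from the 3 differences. Pla2g4a did not pass by limma without number 1 or 2 (adjusted p = 0.300 and 0.183). Ptges changed by 0.79 without number 1, and its adjusted p from the 3 differences was 0.19. Ptgs2, the inducible enzyme, read 878, 287 and 333 against 570.4 to 3834 (median 1222), with differences of 1.97, 1.89 and 0.82 (adjusted p = 0.0007, and 0.0301 from the 3 differences). Ptgs1 changed by 3.71, 1.52 and 0.996, and its arrays did not overlap (adjusted p = 0.00482, and 0.0958 from the 3 differences).

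All 17 tested genes of the NF-kB list, which holds subunits, inhibitors and targets of that transcription factor, had positive changes, and 4 passed: the adhesion molecule Icam1 (0.79 ± 0.093), Tnfaip2 (0.77 ± 0.11), the subunit Nfkb2 (0.67 ± 0.15) and the inhibitor Tnip1 (0.35 ± 0.081). Icam1 read 806, 468 and 392 without peptide and 529.8 to 1685 (median 879) with it. Its differences of 0.98, 0.86 and 0.52 were positive throughout, while the ranges overlapped across numbers (adjusted p = 0.0007). Of 11 interferon-induced genes only Gbp2 (1.32 ± 0.29) passed, with differences of 0.0099, 2.39 and 1.55, and of 9 complement and antigen-presentation genes C1s, a complement protease, fell (-0.48 ± 0.094).

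Because chemokine genes are classical NF-kB targets, the 250 bases before each gene's start were searched for NF-kB sites on both strands (RefSeq promoters, build GRCr8; 7917 of the 9425 tested genes had 1). A match stood in 7 of the 9 called chemokine and interleukin genes with a promoter in the table, against 6.59% of tested genes, 10.3% of the 311 higher genes with a promoter and 5.23% of all 27457 promoters. A match is a description of letters and not a measured binding site. The last 120 bases before the start of 3 of these genes are shown because they carry the match close to the start: Cxcl1 (chr14:17479322-17479441, minus strand), Cxcl2 (chr14:17467256-17467375, minus strand) and Ccl20 (chr9:91837039-91837158, plus strand), with the matched bases in capitals (in Cxcl1 and Cxcl2, 2 overlapping matches on opposite strands).
Cxcl1: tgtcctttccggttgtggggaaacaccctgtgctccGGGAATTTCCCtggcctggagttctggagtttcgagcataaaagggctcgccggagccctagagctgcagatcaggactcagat
Cxcl2: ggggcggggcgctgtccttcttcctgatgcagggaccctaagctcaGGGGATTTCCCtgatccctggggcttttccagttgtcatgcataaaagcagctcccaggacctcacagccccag
Ccl20: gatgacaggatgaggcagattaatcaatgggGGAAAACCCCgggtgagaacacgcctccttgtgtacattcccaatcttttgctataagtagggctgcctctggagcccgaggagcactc

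Of 33 tested contractile and actin genes 16 rose, with a median of 0.25 over the list, and 13 passed without number 1. From the 3 differences 10 passed, the most of any list. Markers of pericytes and smooth muscle, some of which are also on this list, moved with it, and their values are given below. Acta2, smooth muscle actin, read 544, 687 and 793 without peptide and 761 to 1236 (median 1005) with it. Number 1 was the dimmest for this gene, so the ranges overlapped, and the differences were nearly equal in the 3 numbers (0.56, 0.59 and 0.50; 0.55 ± 0.062, adjusted p = 0.000507). Tagln, the actin-binding transgelin, read 2708, 4637 and 5003 against 5201 to 8217 with no overlap (0.72 ± 0.092, adjusted p = 0.000931). The myosin regulatory chain Myl9 (0.67), caldesmon Cald1 (0.64), the calponins Cnn1 (0.63), Cnn2 (0.54) and Cnn3 (0.25), the tropomyosins Tpm1 (0.41), Tpm2 (0.73) and Tpm4 (0.42), Csrp1 (0.62), the Arp2/3 subunit Arpc1b (0.72), nonmuscle myosin Myh9 (0.56), Actg2 (0.63), Pdlim1 (0.55) and profilin Pfn1 (0.31) rose as well. Tpm1 has 6 tested probe sets, of which 4 passed higher and 1 that did not lay at -0.17.

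Adhesion sites link this actin to the matrix through integrins. Of 30 tested genes for integrins and focal adhesions 11 rose (median 0.25; 7 without number 1 and 2 from the 3 differences): the integrin chains Itgb1 (0.43), Itgb3 (0.95) and Itga8 (0.76), the linkers Tln1 (talin, 0.52), Vcl (vinculin, 0.49), Flna (0.72), Flnc (0.67), Actn1 (alpha-actinin, 0.67) and Actn4 (0.34), the signalling adaptor Bcar1 (0.57) and the caveolar coat protein Cav1. Cav1 read 815, 559 and 723 without peptide and 986 to 2573 (median 1724) with it, without overlap (1.28 ± 0.16, adjusted p = 0.000805). Its partner in caveolae Cavin3, on no list, rose by 0.55 (adjusted p = 0.000507), also without overlap. Of the other Vcl probe sets, that at 0.53 passed and that at 0.46 did not. Among 18 S100 proteins, annexins and membrane repair genes, 7 rose and 17 were positive (median 0.20; 5 without number 1 and 5 from the 3 differences). With S100a6 they were the membrane repair ferlin Myof (1.15 ± 0.11, adjusted p = 0.000117), S100a4 (1.05 ± 0.13), S100a11 (0.72 ± 0.083), the annexins Anxa1 (0.78) and Anxa3 (0.43) and the galectin Lgals1 (0.45).

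Matricellular proteins are secreted regulators that sit in the matrix without building it. Of 15 tested, 8 rose, with a list median of 0.44, and 5 passed without number 1 and 4 from the 3 differences. Ccn2, connective tissue growth factor, read 7141, 11495 and 9244 without peptide and 14675 to 18897 (median 15715) with it, without overlap and with differences of 1.12, 0.66 and 0.70 (0.83 ± 0.069, adjusted p = 5.65e-05, and 0.0196 from the 3 differences). Its relatives Ccn1 (1.38 ± 0.18) and Ccn3 (0.74 ± 0.10) rose too. The other risers were Esm1, Tnc, osteopontin Spp1 (1.10), fibulin Fbln2 (0.85) and Sparc (0.26).

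Ccn1 and Ccn2 are textbook targets of the TEAD transcription factors, and Tead1 itself, on no list, rose by 0.52 ± 0.064 (adjusted p = 0.000838). The TEAD motif GGAATG, on either strand, stood in the 250 bases before the start of 57 of the 311 higher genes with a promoter (18.3%), against 9.54% of tested genes, 6.12% of the lower genes and 11.8% of all promoters. The last 130 bases before the start are shown for Ccn1 (chr2:237225690-237225819, minus strand), with 1 match there, and Ccn2 (chr1:22624615-22624744, minus strand), with 2, in capitals.
Ccn1: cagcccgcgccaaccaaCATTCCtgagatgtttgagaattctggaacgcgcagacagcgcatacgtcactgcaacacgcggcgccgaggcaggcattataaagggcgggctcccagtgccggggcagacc
Ccn2: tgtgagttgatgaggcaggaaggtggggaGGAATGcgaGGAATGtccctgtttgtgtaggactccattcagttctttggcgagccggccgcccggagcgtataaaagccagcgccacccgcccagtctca
The AP-1 motif TGANTCA stood before 6.11% of the higher and 6.12% of the lower genes against 3.99% of tested genes, and the CArG box of serum response factor before 1 of 14 called contractile genes against 1.25% of tested genes. These shares were not matched for base composition.

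Genes of the matrix itself were mostly positive: 13 of 15 tested for basement membrane and 19 of 22 for other collagens and their enzymes. Basement membrane genes rose in 6 of 15 cases (median 0.30; 4 without number 1 and 2 from the 3 differences), with the collagen IV chains Col4a1 (0.82 ± 0.099), Col4a2 (0.56 ± 0.08) and Col4a5 (0.57), the laminin chain Lamb1 (0.36 ± 0.046), fibronectin Fn1 (0.30 ± 0.06) and Sparc. Col4a1 read 1710.1, 1628 and 1252 without peptide and 1724 to 4149 (median 2759) with it, with no overlap (adjusted p = 0.000775). Among 22 other collagens and collagen-modifying enzymes 6 rose and 1 fell (median 0.23; 2 from the 3 differences). Col12a1 (0.94 ± 0.086), Col5a2 (0.53 ± 0.074; its other tested probe set, at 0.21, did not pass), Col8a1 (0.64), the crosslinking oxidase Loxl2 (0.45), the prolyl hydroxylase P4ha2 (0.40) and the collagen chaperone Serpinh1 (0.37) were higher. Col3a1, of type III collagen, fell (-0.27 ± 0.054, adjusted p = 0.0144). Of 5 tested small leucine-rich proteoglycans and related proteins 2 fell: Ogn, which coats collagen fibrils, and Islr, a protein with leucine-rich repeats and an immunoglobulin domain that is no member of the class. The median of these 5 was 0.26, -0.63 and -0.40 in numbers 1, 2 and 3, and the pooled median of -0.27 became 0.021 without number 2. Ogn read 6480.0, 1116 and 934 against 547 to 2774 (median 669), with differences of -1.26, -0.92 and -0.46, and its 3 other probe sets also fell, by 0.88 to 1.05.

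Matrix turnover and growth factor control moved with these. Of 22 metalloproteinases and inhibitors 4 rose (2 without number 1 and 0 from the 3 differences by limma): the inhibitor Timp1 (1.01 ± 0.14), Adamts7 (0.90 ± 0.14), the sheddase Adam17 (0.60) and Adam19 (0.26; its other probe set lay at -0.12 and did not pass). Of 31 genes of the TGF-beta, activin and bone morphogenetic protein pathways 10 rose, though the list median was only 0.11, and 4 passed without number 1 and 2 from the 3 differences. The ligand Tgfb3 (0.97 ± 0.093, adjusted p = 0.000158) read 369.5, 453 and 242 without peptide and 474 to 1046 (median 607) with it, without overlap. The latent complex proteins Ltbp1 (0.72) and Ltbp2 (1.06 ± 0.093), the activin chain Inhba (1.03), Bmp2 (0.49), Id1 (0.42), Smad3 (0.26) and Fstl1 (0.24) rose beside the antagonists Fst and Grem1. Of 25 genes for hyaluronan and proteoglycans the syndecan Sdc4 (1.24 ± 0.22), the hyaluronan receptor Cd44 (0.53) and Csgalnact1 (0.40) rose. The other probe set of Csgalnact1, at 0.37, did not pass.

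Genes of coagulation and fibrinolysis moved in both directions. F3, the tissue factor that starts coagulation, rose (1.42 ± 0.18, adjusted p = 0.00089) from 627, 211 and 324 to a range of 401 to 2770.4 (median 633), and Thbd fell. The plasminogen activator Plau (1.03 ± 0.17), the protease inhibitor Serpine2 (0.79) and the thrombin receptor F2r (0.49; its difference in number 3 was -0.089) were the other calls among 13 tested. Of 13 vasoactive peptides, receptors and enzymes, the angiotensin-cleaving aminopeptidase Enpep (1.34 ± 0.23), the dilator adrenomedullin Adm (0.80 ± 0.14) and Ramp1, a subunit of receptors for that peptide family (0.47), rose and Agtr2 fell. None of these 4 passed without number 1, where they changed by 0.91 (Enpep), 0.57 (Adm), 0.53 (Ramp1) and -0.58 (Agtr2). In the angiogenesis list of 14, Pdgfrb (1.02 ± 0.19), Fgfr2 (0.82 ± 0.11) and Esm1 rose while Kdr and Angpt2 fell.

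Immediate early genes, which respond first to a stimulus, were read at 24 h. Of 21 immediate early genes 5 rose: Nr4a1 (1.22 ± 0.25), the AP-1 subunit Fosl1 (0.97), Ier3 (0.75 ± 0.14), Egr1 (0.73 ± 0.14) and Klf4 (0.67 ± 0.16). The list median was 0.59 in number 1, 0.20 in number 2 and -0.037 in number 3, and 0 passed without number 1, without number 2 or from the 3 differences (limma; 10 had an unadjusted p under 0.05 with the block). Of 15 kinase feedback genes the phosphatase Dusp1 rose (0.27 ± 0.049), though its other probe set, at 0.17, did not pass. Of 18 G protein regulators Rgs16 and the receptor kinase Grk5 (0.50) rose and Rgs17 fell (-0.36, with 4 other probe sets that did not pass). Of 15 growth factors only Il6 passed. Of 7 receptor genes for neurotrophic factors and related cytokines, the neurotrophin receptor Ntrk2 (-0.21 ± 0.053, adjusted p = 0.0428) and the GDNF receptor Ret (-0.26 ± 0.059; 2 other probe sets did not pass) fell, and the Wnt antagonist Sfrp2 (-0.55 ± 0.13) fell among 15 Wnt and Notch genes. Without number 1, Ntrk2, Ret and Sfrp2 did not pass by limma (adjusted p = 0.196, 0.203 and 0.407), nor did Rgs16 and Grk5 (0.164 and 0.371). Ntrk2 also failed without number 2 or 3 (0.224 and 0.111). From the 3 differences, 0 members of the G protein, neurotrophic receptor and Wnt lists passed.

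Cell cycle genes had the highest list median, 0.76, and rested on number 1. Of 38 tested, 35 were positive and 18 rose, among them the cyclins Ccna2 (1.23 ± 0.22), Ccnb2 (1.13 ± 0.21), Ccnd1 (0.75 ± 0.14) and Ccnd3 (0.27), the spindle proteins Kif20a (1.34), Kif22 (0.37), Nusap1 (1.02) and Racgap1 (0.81), the kinetochore proteins Nuf2 (1.04), Spc24 (0.98) and Cenpf (0.93), and the proliferation antigen Mki67 (0.99). Ccna2, cyclin A, read 233, 108 and 71.0 without peptide and 121 to 1020.5 (median 172) with it. The differences were 2.09, 0.64 and 0.95, and the number 1 arrays lay far above the others. The list median was 1.63 in number 1 against 0.36 in number 2 and 0.29 in number 3. Without number 1 a single gene passed, without number 2 it was 8, without number 3 it was 15, and from the 3 differences 0 (limma; 27 of the 38 had an unadjusted p under 0.05 with the block). Over all 15521 probe sets, 207 were higher without number 2 and 475 without number 3, and from the 3 differences 0.668% of all genes were higher.

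DNA replication genes also rested on number 1. Of 34 tested, 31 were positive and 6 rose: the helicase subunits Mcm2 (0.46), Mcm3 (0.77 ± 0.15), Mcm4 (0.50) and Mcm5 (0.98 ± 0.22), thymidine kinase Tk1 (0.86 ± 0.13) and the chromatin protein Uhrf1 (0.95 ± 0.13). Of these only Uhrf1 passed from the 3 differences (adjusted p = 0.045), and 0 passed without number 1. Fibroblast markers summed to 67400 on the untreated array of number 1, and to 60700 to 66000 on its endothelin arrays. Their part in the cell cycle result was not tested.

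The CCAAT box, a motif common before mitotic genes, stood in the 250 bases before the start of 13 of the 14 called cell cycle genes with a promoter in the table, on either strand, against 35.7% of tested genes and 36.3% of the higher genes. The cell cycle homology motif TTTGAA stood before 7 of the 14, against 9.47% of tested genes. The last 160 bases before the start are shown for Ccnb2 (chr8:79981659-79981818, minus strand), with 3 CCAAT boxes, and Cdca3 (chr4:159321043-159321202, plus strand), with 2, in capitals.
Ccnb2: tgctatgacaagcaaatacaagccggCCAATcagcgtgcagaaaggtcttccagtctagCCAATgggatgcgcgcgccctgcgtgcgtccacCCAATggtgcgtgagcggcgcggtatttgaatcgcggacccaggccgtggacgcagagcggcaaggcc
Cdca3: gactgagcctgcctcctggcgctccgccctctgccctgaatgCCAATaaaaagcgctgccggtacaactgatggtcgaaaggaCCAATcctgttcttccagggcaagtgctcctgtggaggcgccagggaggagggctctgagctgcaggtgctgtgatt

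**Figure D4:**
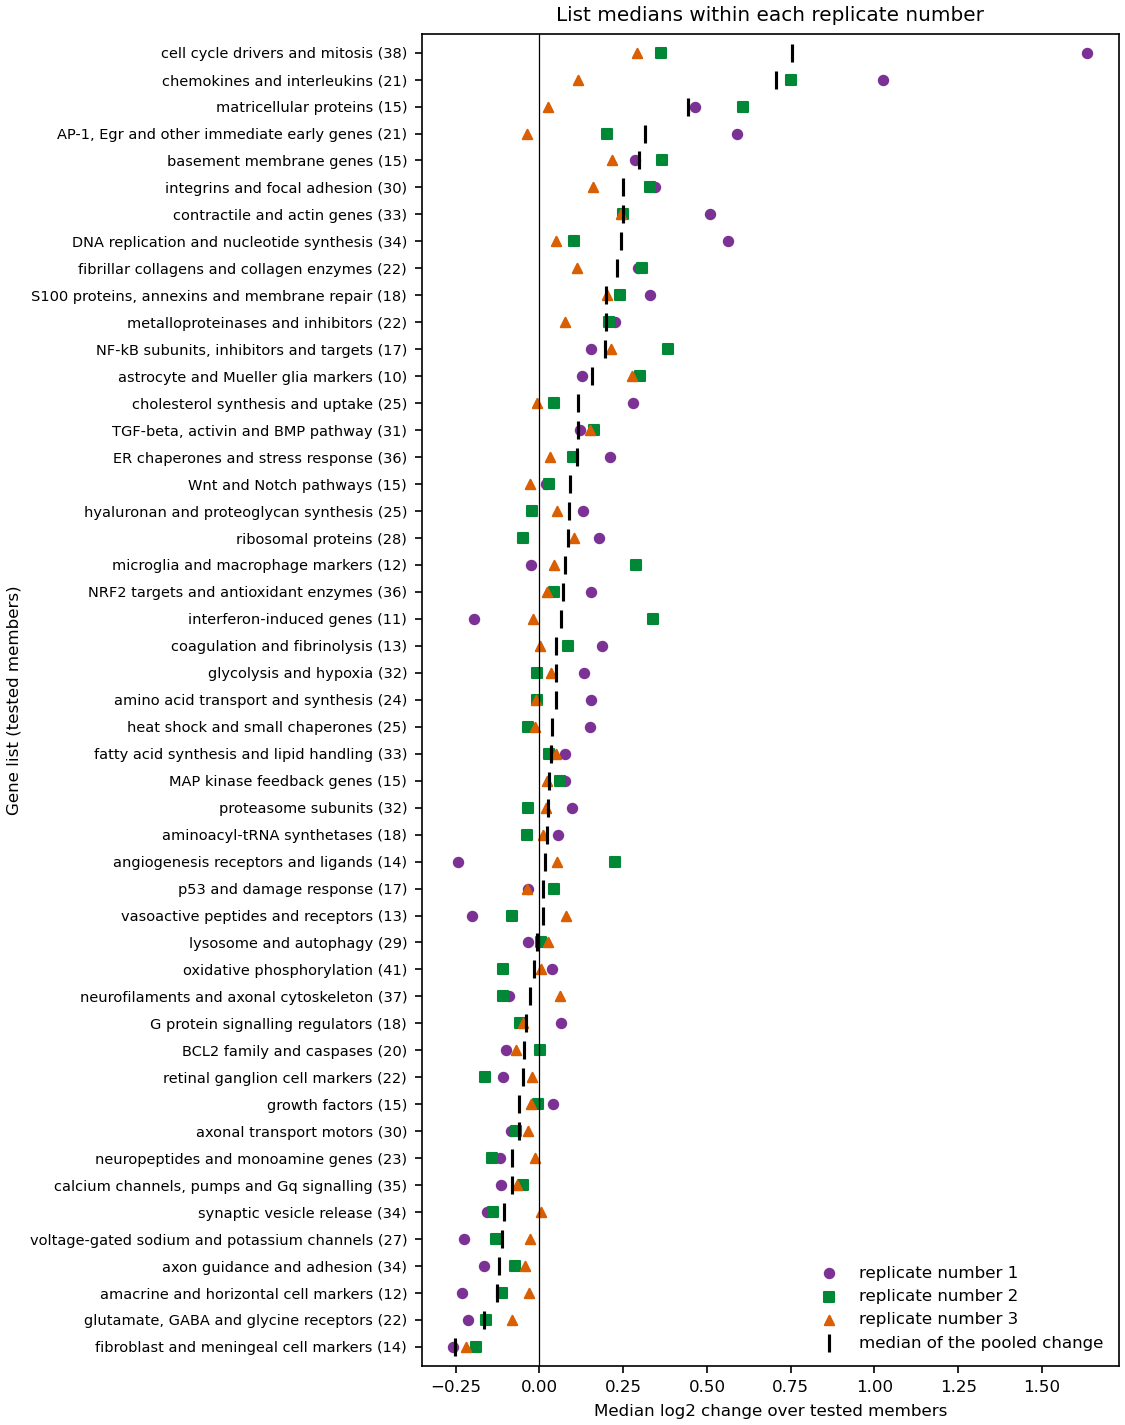
Median log2 change over the tested members of each list (lists with at least 10) within replicate numbers 1 (circles), 2 (squares) and 3 (triangles), with a bar for the median of the pooled change. The cell cycle list lies at 1.63 in number 1 against 0.36 and 0.29 in numbers 2 and 3, while the pooled medians of the 8 neuronal lists lie between -0.17 and -0.029.

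Stress and metabolic genes held fewer calls, most of them small. Of 36 genes for chaperones of the endoplasmic reticulum and its stress response 6 rose (median 0.11), among them Creld2 (0.46 ± 0.10), the disulfide isomerase Pdia6 (0.29 ± 0.047), the translocon subunit Sec61b (0.30 ± 0.056), Edem1 (0.34), calreticulin Calr (0.26) and the chaperone Hspa5 (0.24). Without number 1, and from the 3 differences, 0 passed by limma (14 had an unadjusted p under 0.05 with the block). The other probe set of Edem1, at 0.37, did not pass with the block. The small heat shock proteins Cryab (1.02 ± 0.11, adjusted p = 0.000507) and Hspb1 (0.81 ± 0.13) rose among 25 heat shock genes whose median was 0.037, and Hspa4l (-0.24) fell. Cryab, alpha-B crystallin, read 244, 559 and 1537 without peptide and 461 to 2389 (median 1558) with it and changed by 1.04, 1.41 and 0.60. Targets of the antioxidant regulator NRF2 had 6 of 36 higher, led by Akr1b8 (0.97 ± 0.16) and the quinone reductase Nqo1 (0.68 ± 0.11), and Gsta4 (-0.48 ± 0.12) lower, and 1 gene of the list passed higher without number 1 and 0 from the 3 differences by limma.

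Of 32 genes of glycolysis and hypoxia 6 rose: the lactate exporter Slc16a3 (1.15 ± 0.24), the hypoxia-inducible factor Epas1 (0.68 ± 0.097), P4ha2, Adm, Pgam1 (0.17) and Pgk1 (0.16). The list median was 0.050 and turned to -0.0069 with median centring, as the heat shock median turned to -0.020. From the 3 differences 1 of the 6 passed. In the apoptosis list of 20 the pro-death Bcl2l11 (Bim) fell (-0.29 ± 0.05, adjusted p = 0.00634) and the receptor Tnfrsf12a rose (0.50). Among 17 p53 genes Gadd45b rose (0.32) and Gadd45a fell (-0.20). In these lists 0 genes passed by limma without number 1, without number 2 or from the 3 differences. Gadd45b and Gadd45a had adjusted p of 0.224 and 0.109 without number 1, and both also failed without number 3. Lipid synthesis added Msmo1 (0.51 ± 0.083) of 25 cholesterol genes and Elovl1 (0.41) of 33 fatty acid genes, and the lysosome list of 29 the cathepsins Ctsc (0.43) and Ctsh (0.33). The other probe set of Ctsc, at 0.25, did not pass.

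Housekeeping lists held no call by limma, nor from the 3 differences. They were oxidative phosphorylation (41 tested; 1 had an unadjusted p under 0.05), ribosomal proteins (28; 9), proteasome subunits (32; 2), aminoacyl-tRNA synthetases (18; 1) and amino acid transport and synthesis (24; 4). Over all genes, 11.1% had such a p on the higher side and 10.9% on the lower side. The 41 oxidative phosphorylation genes lay between -0.18 and 0.25 with a median of -0.015, and 27 of the 28 ribosomal protein genes were positive, by at most 0.14.

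Neuronal genes lay mostly on the lower side, by small amounts, as did 55.9% of all tested genes. Of 22 receptors for glutamate, GABA and glycine, 21 had negative changes (median -0.17), 11 of them with an unadjusted p under 0.05, and 0 passed by limma. Of 27 sodium and potassium channel genes the axonal potassium channel Kcna2 (-0.31 ± 0.054, adjusted p = 0.00695) and the sodium channel Scn2a (-0.22 ± 0.049) fell, and 22 were negative. Synaptic vesicle genes gave Bsn, the presynaptic scaffold bassoon, and Dnm1, which pinches off vesicles (-0.19 ± 0.051), as 2 calls of 34. Bsn read 2743, 3097 and 2875 without peptide and 1988 to 2569.6 (median 2434) with it. Each endothelin array lay below each untreated array, with differences of -0.44, -0.33 and -0.21 (-0.33 ± 0.05, adjusted p = 0.00269, and 0.0905 from the 3 differences). Of 35 genes of calcium handling and Gq signalling, the pathway that endothelin receptors use, the phospholipase Plcg1 (-0.32 ± 0.053) and the calcineurin regulator Rcan2 (-0.17; its other probe set did not pass) fell and 27 were negative.

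Axonal genes held 1 call: Ank3, the ankyrin of the axon initial segment (-0.33 ± 0.059; its other probe set, at -0.31, did not pass), of 37 cytoskeletal genes. Transport motors (30; 6 with an unadjusted p under 0.05), axon guidance genes (34; 12) and neuropeptide genes (23; 8) had 0 by limma. Without number 1, 0 of the lower calls named in the vesicle, channel and calcium lists remained, although their changes were then -0.31 for Kcna2, -0.27 for Bsn, -0.29 for Plcg1, -0.21 for Dnm1, -0.20 for Scn2a and -0.13 for Rcan2. With the arrays centred on their median the same lists held more lower calls: 7 for the neurotransmitter receptors, 8 for calcium, 6 for axon guidance and 5 each for channels and neuropeptides. With that centring 6.42% of all tested genes were lower.

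RGC identity genes held 1 call of 22, the transcription factor Eomes of a subset of RGCs (-0.32 ± 0.07, adjusted p = 0.0224; its other probe set, at -0.30, did not pass), and their median was -0.050. Of the 22, 15 were negative. By limma with the block 6 had an unadjusted p under 0.05, all lower, against 10.9% of all genes on that side. Isl1 was at -0.30 and did not pass. Sncg was at 0.067 ± 0.066, Rbpms at -0.073 ± 0.052, Thy1 at 0.001 ± 0.08, Tubb3 at -0.054 ± 0.046 and Nefl at -0.065 ± 0.051, with adjusted p from 0.527 (Tubb3) to 0.998 (Thy1). With median centring 5 of the 22 were called lower, against the 6.42% of all tested genes, so the count depends on the scaling.

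Markers of other cells moved with several groups above. Pericyte and smooth muscle markers had 5 of 9 tested genes higher (Pdgfrb, Tagln, Cnn1, Acta2 and the adhesion molecule Mcam, 0.52), and 3 passed without number 1. The other probe set of Mcam, at 0.40, did not pass. The summed signal of 15 such markers was 7120 to 7880 without peptide and 9710 to 12800 with it, with no overlap, and Tagln was the brightest of them. Of the dim defining pericyte genes below the filter, Cspg4 (NG2) read 26.0 to 34.7 without peptide and 35.7 to 131 with it, without overlap, whereas Rgs5 stayed between 19.3 and 56.9 on the 12 arrays, Kcnj8 between 4.37 and 55.5 and desmin (Des) between 77.0 and 152. Astrocyte and Müller glia markers had 4 of 10 higher, and 3 of the 10 had negative changes. Vim, the intermediate filament vimentin, read 7759, 6711 and 6977 against 9692 to 13668 (median 10930.3) without overlap (0.67 ± 0.048, adjusted p = 4.02e-05), and the gap junction gene Gja1 (1.03 ± 0.10), nestin (Nes, 0.59) and clusterin (Clu, 0.25) rose. Nes did not pass without number 1, 2 or 3 (limma, adjusted p = 0.102, 0.292 and 0.0848). The summed signal of the glial list (19 genes) was 29000 to 35200 without and 33100 to 44900 with peptide. The bright Vim is part of that sum, as is Gja1, which read 617 to 4556 without and 1106 to 11276 with peptide. Gfap stayed between 64.3 and 240.4 and the glutamate transporter Slc1a2 between 1.83 and 40.2. Other dim glial markers were Aqp4 (78.2 to 170 over the 12 arrays), Aldh1l1 (19.3 to 82.6) and S100b (20.4 to 60.0). Rlbp1 (5.01 to 80.7) and Kcnj10 (5.16 to 30.5) were dim as well. The part of these cells in the contractile, matrix and inflammatory groups was not tested.

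Fibroblast and meningeal markers went mostly the other way. Of 14 tested, 5 fell (Thbd, Ogn, Islr, Olfml3 at -0.48 and Col3a1) and Twist1 rose (0.96 ± 0.19). The summed signal was 12000 to 67400 without and 10600 to 66000 with peptide, and the median of the list was -0.26, -0.19 and -0.22 in numbers 1, 2 and 3. Of the 5 endothelial markers tested Kdr fell. The summed signal of 17 endothelial markers was 2660 to 3370 without and 2030 to 3260 with peptide. Ramp2, the brightest of them, read 907 to 1624 over the 12 arrays, whereas Pecam1 (3.21 to 48.9) and Tie1 (4.34 to 44.7) were dim on every array. Of 12 microglia markers 0 passed by limma (1 had an unadjusted p under 0.05), with sums of 7130 to 11500 against 6100 to 14800. Amacrine and horizontal cell markers had 0 calls of 12 (5 unadjusted, all lower) and sums of 14400 to 14700 against 12900 to 14400. The oligodendrocyte list had Cldn11 lower and Pmp22 (0.28) higher of 5, and the other probe set of Pmp22, at 0.16, did not pass. Photoreceptor markers summed to 464 to 930 over the 12 arrays and bipolar cell markers to 1190 to 2510, and the single tested gene of each, Rom1 (-0.18) and Isl1 (-0.30), did not pass. Isl1 is also on the RGC list and read 635 to 1931 over these arrays, so much of the bipolar sum is the signal of a gene that RGCs share.

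Of the called genes, 217 that rose and 92 that fell are on no list. Axl, the receptor tyrosine kinase for Gas6 that damps inflammation and clears dying cells, had the smallest p among them. It read 1216, 579 and 699.8 without peptide and 1293 to 3871 (median 1625) with it, without overlap and with differences of 1.66, 1.40 and 0.96 (1.34 ± 0.10, adjusted p = 4.12e-05, and 0.00816 from the 3 differences). Next on the higher side came the myosin light chain Myl12a (0.77 ± 0.069), the granzyme inhibitor Serpinb9 (0.76 ± 0.08), the mitochondrial translocator protein Tspo (0.88 ± 0.097), a marker of reactive glia, the splicing regulator Ptbp1 (0.69 ± 0.078), the calcification inhibitor Mgp (0.76 ± 0.086), Cavin3 and Tead1. Tspo read 812, 279 and 279 against 402 to 1752 (median 507) and changed by 1.08, 0.84 and 0.72. Chosen after their values were seen, the sphingosine kinase Sphk1 (1.20 ± 0.16, adjusted p = 0.00125), the transcription factor Runx1 (0.70) and the mechanically gated channel Piezo1 (0.69 ± 0.097, adjusted p = 0.00173) also rose.

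On the lower side, the genes on no list with the smallest p after Crym and Inmt were Mocs2, an enzyme of molybdenum cofactor synthesis (-0.36 ± 0.054), Zdbf2 (-0.28 ± 0.046), the carbonic anhydrase relative Car10 (-0.35 ± 0.06), the clathrin light chain Cltb (-0.28 ± 0.049), the synaptic vesicle transporter Slc6a17 (-0.31 ± 0.055; its other probe set did not pass) and Hmbox1 (-0.30 ± 0.055; its other probe set did not pass). Mocs2 changed by -0.36, -0.41 and -0.31 and Zdbf2 by -0.26, -0.26 and -0.30, nearly the same in each number. Their adjusted p ran from 0.00249 (Mocs2) to 0.00922 (Hmbox1). Of these 6 none passed from the 3 differences, where Mocs2 was nearest (adjusted p = 0.0567).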

How the data were processed

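The deposited table holds intensity values, 1 per probe set and array on a linear scale, for 12 one-colour arrays. The authors made them with MAS5, per the submitters' processing notes; no version or setting is given in the sources used here. The mean after trimming 2% at each end was 496.7 to 498.3 on every array, so values appear scaled to a common level. Array number limits the precision.

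The log2 of each intensity was used as it stands, without normalization or pseudocount. Of 31042 probe sets, the 15521 with a mean log2 signal at or above the median (a signal of about 147.5) were tested. Limma 3.58.1 in R 4.3.3 fitted 4 group means with the replicate number as a block and an intensity trend. The contrast was the mean of ET-1, ET-2 and ET-3 minus untreated, and the F-test among peptides used the same fit (6 residual degrees of freedom, median residual SD 0.127 on the log2 scale, against 8 and 0.25 without the block). P-values were two-sided and Benjamini-Hochberg adjusted over all 15521. The labels give shared replicate numbers and do not state what they mark; all 18 same-number correlations lay above 0.1. A gene is read from its brightest tested single-symbol probe set. Symbols were checked by Entrez ID against RefSeq (GRCr8): 20758 matched, 68 did not and 0 changed.

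Named genes are the 12 largest called changes per direction with the same sign in all 3 numbers, up to 4 called members per list and direction (or the 1 with the smallest p), 8 per direction on no list, 6 for the F-test and the endothelin genes. Other list members were named after their values were seen. The members and lists were chosen with earlier results of these data known. The code was tested on simulated data. Probe sets with several symbols (436) or none (9780) were tested but not named. Alternatives were the block, the 3 differences, scaling, pseudocount, filter, trend and leaving out arrays.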

Additional observations from a re-analysis of the deposited data

Results flagged for a closer look

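For 4 genes every array of 1 peptide moved against every array of another, relative to the untreated array of the same number. Ankrd6 was higher with ET-2 and lower with ET-1 and ET-3, for a pooled log2 change of -0.084. Caskin1 (-0.072) and Fyb1 (-0.073) were higher with ET-1 and lower with ET-2 and ET-3. Naxd (0.055) was higher with ET-2 and lower with ET-3. The F-test among peptides gave each an adjusted p of 0.9999 by limma, so the difference did not pass. Of the 167 genes named by rule, 6 were chosen for the smallest p of that F-test, and all 4 are among these 6. The choice thus favoured genes with such differences.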

How the results depend on the processing

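The count of calls moved with the processing more than the fold changes did. Without the replicate block, 0 probe sets passed (0 higher, 0 lower) against 758. The 3 within-number differences alone gave 97 (90 higher, 7 lower). Median centring gave 1492, with 1066 lower. The 9 endothelin arrays as 1 group gave 333 lower, no filter 127 lower, a filter at the 75th percentile 301 higher, and no intensity trend 438 with 71 lower. Leaving out arrays gave 224 to 1014 calls (191 to 714 higher, 17 to 300 lower): 226 without replicate number 1 (35 lower), 224 without number 2 (17 lower), 75 lower without number 3, and 334 without the untreated array of number 1 (59 lower). Without single endothelin arrays it was 484 (ET-2 of number 1) to 783. Without the ET-1 arrays 364 passed (299 higher, 65 lower), without ET-2 413 (358, 55) and without ET-3 344 (287, 57). The F-test among peptides called 0 in every alternative run.

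Of 146 named called genes, 45 kept their call in all alternatives run for them other than dropping the block, among them Il1rl1, Esm1, S100a6, Axl, Vim, Ccn2, Acta2, Tagln, Ptgs2, Icam1, Ccl2, Ccl7, Thbd, Crym, Inmt and Ogn. The other 101 lost it in at least 1, and none of the 146 changed sign. Quantile normalization and a pseudocount of 50 kept 594 and 740 of the 758 calls.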
